A study of Mus musculus with 15 samples.

Results

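The nuclear genes of the respiratory chain were examined in 5 murine mononuclear phagocyte (MP) subtypes by RNA sequencing. The 41 members were taken by symbol from a list of subunits of complexes I to IV, and each was matched to its Ensembl gene in the deposited counts, so that they are 41 of 38924 genes in the table. Complex I has 23 members, complex II has 4, complex III has 7 and complex IV has 7. The 15 libraries comprised splenic CD8+ DCs, splenic CD4+ DCs, lung LN CD103+ DCs, lung LN CD11b+ DCs and splenic Ly6C+ monocytes, with 3 libraries each. CD8+ and CD103+ DCs are the DC1 lineage, and CD4+ and CD11b+ DCs the DC2 lineage. All mice were naive female C57BL/6 animals, 6 to 8 weeks old by the labels and 6 to 10 weeks by the study's methods, with no transgene or treatment. Cells of 5 mice were pooled for each library, and spleens and LNs were collected from different cohorts. After collagenase D digestion, beads against CD11c (DCs) or CD11b (monocytes) were used to enrich cells before sorting, and the sort of LN DCs kept cells with high MHC class II, that is migratory cells. Organ, cohort and gate therefore cannot be told apart in any comparison of LN with spleen. Each library is a pool, so p-values measure the spread between pools.

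The respiratory chain passes electrons from NADH through complex I, and from succinate through complex II, to ubiquinone, then through complex III and cytochrome c to complex IV, where oxygen is reduced. Complexes I, III and IV pump protons across the inner mitochondrial membrane, and ATP synthase uses the gradient. Complexes I, III and IV combine subunits encoded in the nucleus and in the mitochondrial genome, whereas all subunits of complex II are nuclear. Immune cells shift between respiration and glycolysis with activation, and activated DCs are known for their reliance on glycolysis.

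Promoter sequences were available from RefSeq (GRCm38.p6) for 31 of the 41 members, and 4 are shown because they belong to members that differed between splenic DC subtypes in different directions. Cox6a1 and Ndufb2 were among the members with the largest rise in CD8+ over CD4+ DCs, Sdhd was the complex II member called higher, and Uqcrh fell. The call for Sdhd was lost without certain single libraries, as given below. Capitals mark NRF1 (CGCATGCG) or ETS (CCGGAAG) motifs on either strand, within the 170 bases before the transcription start.
Cox6a1 (chr5:115348959-115349128, minus strand): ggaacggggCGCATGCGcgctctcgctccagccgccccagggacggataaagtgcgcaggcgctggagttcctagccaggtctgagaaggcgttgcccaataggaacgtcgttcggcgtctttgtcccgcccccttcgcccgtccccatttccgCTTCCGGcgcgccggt
Sdhd (chr9:50603850-50604019, minus strand): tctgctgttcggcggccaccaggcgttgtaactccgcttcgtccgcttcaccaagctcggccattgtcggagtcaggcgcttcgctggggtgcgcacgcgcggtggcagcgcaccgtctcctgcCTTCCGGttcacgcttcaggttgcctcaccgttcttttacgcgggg
Ndufb2 (chr6:39592395-39592564, plus strand): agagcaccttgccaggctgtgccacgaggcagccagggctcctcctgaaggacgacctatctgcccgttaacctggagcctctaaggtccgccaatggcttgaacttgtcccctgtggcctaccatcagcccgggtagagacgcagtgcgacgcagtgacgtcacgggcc
Uqcrh (chr4:116075071-116075240, minus strand): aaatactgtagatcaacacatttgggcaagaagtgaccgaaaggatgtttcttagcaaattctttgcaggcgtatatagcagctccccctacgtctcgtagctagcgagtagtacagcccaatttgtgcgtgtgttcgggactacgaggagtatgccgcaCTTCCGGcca

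Over the full window, 250 bases before to 50 after the start, the NRF1 letters were in 3 of 31 members (9.68%) and in 1.87% of 32851 RefSeq promoters. The ETS letters were in 8 members (25.8%) against 8.86% of promoters, and the YY1 letters (GCCATNTT, either strand) were in 8 members (25.8%) against 6.05%. Ndufa8, Uqcrc1 and Cox6a1 held the NRF1 motif. The ETS motif was in Ndufb7, Ndufs3, Ndufs8, Sdhb, Sdhd, Uqcrh, Cox6a1 and Cox8a, and the YY1 motif in Ndufa9, Ndufb5, Ndufb8, Ndufb10, Ndufc1, Ndufs7, Ndufs8 and Cox7b. Of the members with a promoter, 5 of 12 that were higher in CD8+ than in CD4+ DCs, 1 of 2 that were lower and 2 of 17 that were not called held the ETS letters. The YY1 letters were in 3 of 12 higher, 0 of 2 lower and 5 of 17 not called, and the NRF1 letters in 1 of 12, 0 of 2 and 2 of 17. Both Cox6a1 and Uqcrh, which moved in opposite directions, held the ETS letters close to the start (at -16 and -10). A match is a description of letters and not a site. No promoter was used here for Ndufa2, Ndufb9, Ndufs1, Sdhc, Uqcrc2, Uqcrb, Uqcrq, Cyc1, Cox4i1 or Cox6c.

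Libraries held 4531243 to 10233914 counts on genes, of which the members took 0.343% to 0.547%. The lowest count of a member in a library was 21, so each member was quantified in each library. Defining transcripts followed the sort. Xcr1 averaged 715 CPM (counts scaled to library size with TMM factors) in CD8+ DCs against 3.70 in CD4+ DCs, Ccr7, the receptor that guides DCs to LNs, averaged 4024 in LN CD103+ DCs against 90.9 in splenic CD8+ DCs, and Ly6c2 averaged 825 in monocytes. The LN CD103+ libraries had less Xcr1 (55.1 CPM) and less Itgae, which encodes CD103 (27.1 CPM), than splenic CD8+ DCs (715 and 107 CPM). T cell transcripts reached a sum of 98.1–133 CPM among the LN CD103+ and 66.7–99.1 CPM among the LN CD11b+ libraries, against 1.21–6.57 (CD8+) and 1.36–6.18 CPM (CD4+) in spleen. Reads that mapped uniquely but outside exons were 24.7–30.7% in LN CD103+ DCs and 17.6–23.7% in splenic CD8+ DCs. They were 23.0–28.4% in splenic CD4+ DCs, 25.0–30.6% in LN CD11b+ DCs and 19.9–24.2% in monocytes.

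All 41 members exceeded the filter (above 1 CPM in 3 or more libraries), and 30 differed over the 5 subtypes in the F test of edgeR (adjusted p at most 0.05), beside 73.5% of all 14456 genes tested. These were 18 of 23 in complex I, 1 of 4 in complex II, 5 of 7 in complex III and 6 of 7 in complex IV. The share of members was close to that of all genes. Not called were Ndufa1, Ndufa2, Ndufb8, Ndufb9, Ndufb10, Sdha, Sdhb, Sdhd, Uqcrc1, Uqcrc2 and Cox6c. Levels can be set side by side between genes only per length, as TPM (counts scaled by exon length and library). On that scale Ndufa4 was the most abundant member (830 TPM over all libraries), followed by Uqcrfs1 (799), Uqcrh (632), Uqcrc1 (584) and Cox4i1 (482), and Ndufs3 (12.6) and Ndufb2 (6.32) were the lowest. Ndufa4 is named as a complex I subunit but is found in complex IV.

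The members with the largest and the smallest F statistic in each complex show how unevenly the genes of a complex varied. In complex I these were Ndufa10, an accessory subunit of the membrane arm (F = 8.92, adjusted p = 0.000804), and Ndufb10, also of the membrane arm (F = 0.522, adjusted p = 0.737). In complex II they were Sdhc, a membrane anchor (F = 4.83, adjusted p = 0.0124), and Sdha, the flavoprotein that oxidises succinate (F = 2.39, adjusted p = 0.109). In complex III they were Uqcrb, a small subunit (F = 10.6, adjusted p = 0.000315), and Uqcrc1, a core protein (F = 1.07, adjusted p = 0.428). In complex IV they were Cox6a1 (F = 12.4, adjusted p = 0.000135) and Cox6c (F = 3.20, adjusted p = 0.0504).

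Splenic CD8+ DCs had the highest mean CPM for 18 members, Ly6C+ monocytes for 14, CD4+ DCs for 6 and LN CD103+ DCs for 3. LN CD103+ DCs had the lowest mean for 16 members, CD4+ DCs for 14, monocytes for 8 and LN CD11b+ DCs for 3. Neighbours in the order rarely differed beyond their spread, as 6 of 164 neighbouring pairs passed the threshold, 1 each for Ndufa6, Ndufv2, Uqcrb, Cox4i1, Cox6a1 and Cox7b.

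**Figure D1:**
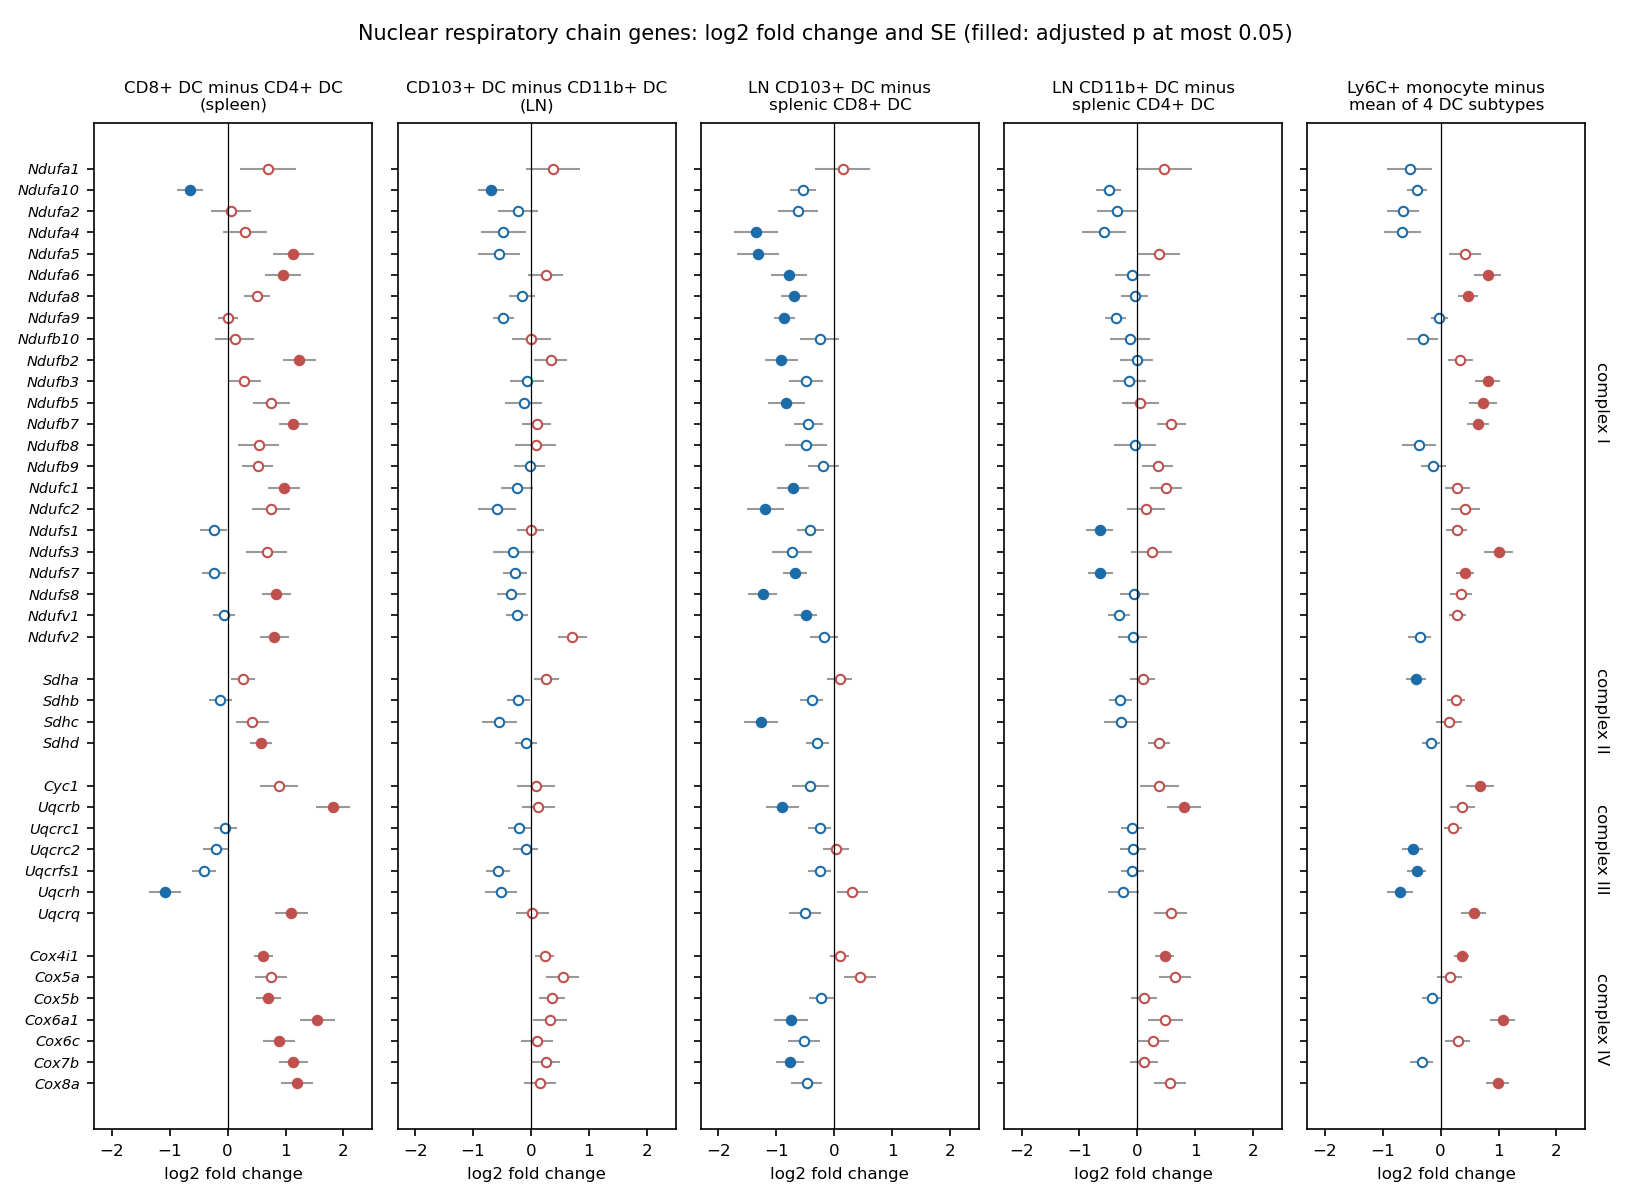
Log2 fold changes (points) and standard errors (bars) of the 41 members in 5 comparisons, ordered by complex, with filled points for an adjusted p at most 0.05. Filled red points gather in the comparison of splenic CD8+ with CD4+ DCs (16 higher, 2 lower) and filled blue points in that of LN CD103+ with splenic CD8+ DCs (16 lower).

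Many respiratory chain transcripts were more abundant in splenic CD8+ DCs than in splenic CD4+ DCs, the DC1 and DC2 subtypes of 1 organ. Of the 41 members, 16 were higher, 2 were lower and 23 were not called, whereas 13.1% of all genes were higher and 14.4% lower. The median log2 fold change was 0.61 over the members and 0.00 over all genes tested. Complex IV had 6 of 7 members higher (Cox4i1, Cox5b, Cox6a1, Cox6c, Cox7b and Cox8a) and a median of 0.89. Complex I had 7 of 23 higher (Ndufa5, Ndufa6, Ndufb2, Ndufb7, Ndufc1, Ndufs8 and Ndufv2) and Ndufa10 lower, complex II had Sdhd higher, and complex III had Uqcrb and Uqcrq higher and Uqcrh lower.

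Uqcrb, a small subunit of complex III (chr13:66900617-66905378, minus strand, mm10), was at 46.1, 49.6 and 80.1 CPM in the 3 libraries of CD8+ DCs and at 19.4, 9.03 and 21.0 CPM in those of CD4+ DCs. Each CD8+ library was above each CD4+ library, the mean was 3.55-fold higher, and the log2 fold change was 1.83 ± 0.29 (SE, n = 3 against 3, adjusted p = 0.000138). Of the 50-base stretches of its transcripts, 43.4% also occur in other annotated genes, all with predicted-gene names, so its count is uncertain. Cox6a1, the broadly expressed isoform of a nuclear complex IV subunit (chr5:115345642-115348981, minus strand), was at 106, 97.8 and 167 CPM in CD8+ DCs against 51.6, 22.6 and 52.0 CPM in CD4+ DCs. Its libraries did not overlap either, and the log2 fold change was 1.55 ± 0.30 (SE, adjusted p = 0.000826). Ndufb2, an accessory subunit of the membrane arm of complex I, was at 26.6, 19.4 and 25.2 CPM against 12.0, 7.49 and 10.6 CPM, with a log2 fold change of 1.24 ± 0.28 (SE, adjusted p = 0.00316) and no overlap. Cox8a was at 82.0, 58.9 and 112 CPM against 40.9, 19.6 and 49.7 CPM (log2 fold change 1.20 ± 0.28 (SE), adjusted p = 0.0034). Here too the lowest CD8+ library was above the highest CD4+ library. All 3 CD8+ libraries were above all 3 CD4+ libraries for 17 members and below them for 1, against 18.7% and 18.1% of all genes.

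Uqcrh, the hinge protein of complex III (chr4:116066965-116075071, minus strand), ran the other way and is singled out after its values were seen. It was at 220, 260 and 207 CPM in CD8+ DCs and at 319, 612 and 518 CPM in CD4+ DCs. All CD4+ libraries were above all CD8+ libraries, and the log2 fold change was -1.08 ± 0.28 (SE, adjusted p = 0.00674). Ndufa10 was at 145, 204 and 126 CPM in CD8+ DCs and at 185, 333 and 227 CPM in CD4+ DCs (log2 fold change -0.65, adjusted p = 0.0351), with 1 CD8+ library inside the CD4+ range. Its call was lost without CD8+ replicate 1, CD8+ replicate 3 or CD4+ replicate 2 (adjusted p = 0.107, 0.154 and 0.217).

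The remaining called members had log2 fold changes from 0.57 (Sdhd) to 1.14 (Ndufa5 and Cox7b). The call for Sdhd was lost without CD8+ replicate 2 or 3 or CD4+ replicate 2 or 3 (adjusted p = 0.0773 to 0.108). That for Cox5b was lost without CD8+ replicate 1 or 2 or CD4+ replicate 1 or 3 (adjusted p = 0.0564 to 0.0821). The calls for Ndufa5, Ndufa6 and Uqcrq were also lost without certain single libraries. Cox6c was at 123, 100.3 and 158 CPM in CD8+ DCs against 86.1, 32.2 and 87.3 CPM in CD4+ DCs (log2 fold change 0.89, adjusted p = 0.0229), and the CD4+ replicate 2 library was far below the others. This call was lost without CD8+ replicate 3 or CD4+ replicate 2 (adjusted p = 0.108 and 0.0665). Ndufs8, an iron-sulfur subunit of complex I, was at 145, 150 and 128 CPM against 93.0, 87.7 and 54.9 CPM (log2 fold change 0.84, adjusted p = 0.0175), with no overlap, and its call was lost without CD8+ replicate 2 or CD4+ replicate 3 (adjusted p = 0.0525 and 0.0708). Some of the subunits that carry electrons were called. Ndufs8 and Ndufv2 (log2 fold change 0.80) of complex I were called, whereas Ndufs1 (-0.24), Ndufs7 (-0.23), Ndufv1 (-0.07), Sdha (0.26), Sdhb (-0.13), Uqcrfs1 (-0.41) and Cyc1 (0.88) were not. Cyc1, although not called, had a larger change than Ndufs8 and Ndufv2. The call for Ndufv2 was lost without CD8+ replicate 3 or CD4+ replicate 2 (adjusted p = 0.124 and 0.0904).

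The 7 calls for Ndufb2, Ndufb7, Uqcrb, Uqcrh, Cox6a1, Cox7b and Cox8a were kept without any 1 library of either group and under every other setting run. Without CD8+ replicate 3 the count fell to 10 higher and 1 lower, and it was 1 lower also without CD8+ replicate 1 or CD4+ replicate 2. With a block for replicate number, 22 members were higher, adding Ndufa1, Ndufa8, Ndufb5, Ndufc2, Cyc1 and Cox5a, and 2 were lower, against 15.7% higher and 16.5% lower of all genes. Macrophage transcripts moved with this comparison, as 6 of 7 were lower in CD8+ DCs (summed level 180–284 CPM against 1049–1337 CPM, with no marker at 0 in either), and 3 of 4 plasmacytoid DC transcripts were higher (161–267 against 103–115 CPM). The share of reads outside exons was higher in each CD4+ library than in the CD8+ library of the same number. The part of these transcripts and of this share in the result was not tested. In bulk libraries of sorted cells, fewer cells of a type and less RNA per cell cannot be told apart.

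**Figure D2:**
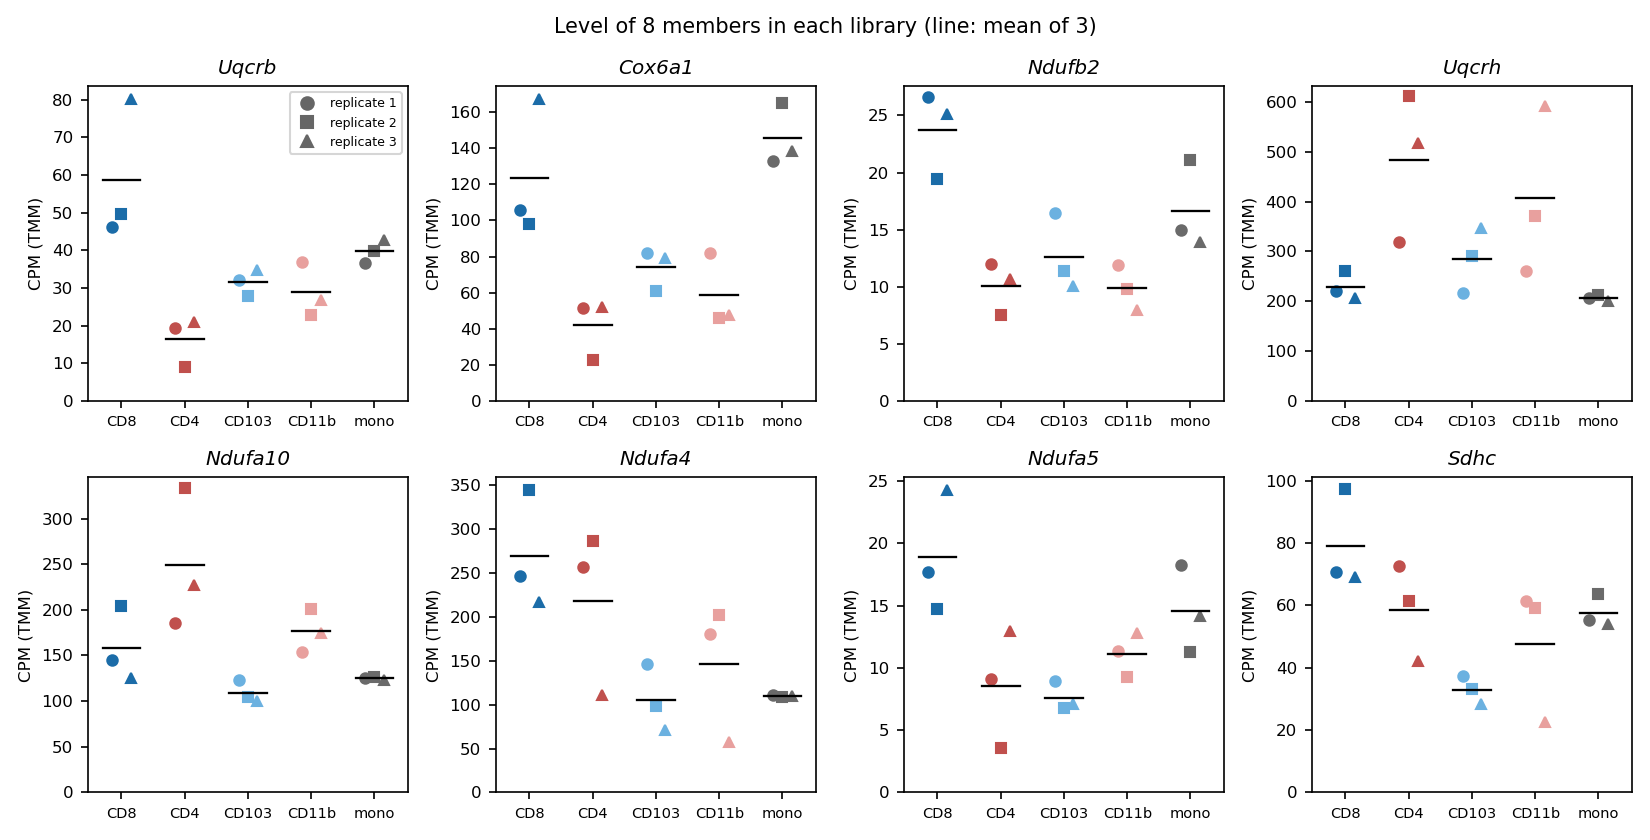
Level of 8 members in each library, in CPM scaled by TMM, with a line at the mean of the 3 libraries of a subtype (mono: Ly6C+ monocytes) and a symbol shape for each replicate number. Uqcrb, Cox6a1 and Ndufb2 are higher in all 3 CD8+ libraries than in the CD4+ libraries, and Uqcrh is lower.

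LN CD103+ DCs were compared with splenic CD8+ DCs to ask how the DC1 lineage differs between a migratory and a resident site. Of the 41 members, 16 were lower and none was higher in LN CD103+ DCs in edgeR, while 21.8% of all genes were lower and 23.8% higher. No member was higher at an unadjusted p under 0.05 either, nor with DESeq2 or limma. The shares of all genes were not counted for these settings. The median log2 fold change was -0.49 over the members and 0.00 over all genes. Complex I held 12 of the 16 (Ndufa4, Ndufa5, Ndufa6, Ndufa8, Ndufa9, Ndufb2, Ndufb5, Ndufc1, Ndufc2, Ndufs7, Ndufs8 and Ndufv1), including 5 of the 6 members of its ubiquinone-binding module, and the others were Sdhc, Uqcrb, Cox6a1 and Cox7b.

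Ndufa4 was at 246, 344 and 217 CPM in splenic CD8+ DCs and at 146, 98.9 and 71.7 CPM in LN CD103+ DCs. The libraries did not overlap, and the level fell by 1.35 on the log2 scale (SE 0.39, adjusted p = 0.00799). Ndufa5, an accessory subunit of the matrix arm, was at 17.7, 14.7 and 24.3 CPM in CD8+ DCs and at 8.92, 6.78 and 7.12 CPM in LN CD103+ DCs, with a log2 fold change of -1.31 ± 0.36 (SE, adjusted p = 0.00592). Sdhc, which anchors complex II in the membrane, was at 70.7, 97.3 and 69.1 CPM against 37.4, 33.2 and 28.3 CPM (log2 fold change -1.26 ± 0.30 (SE), adjusted p = 0.00183). The CD8+ libraries were above the LN CD103+ libraries for both genes. Ndufs8 was at 75.6, 56.7 and 47.2 CPM in LN CD103+ DCs, all below its CD8+ values (log2 fold change -1.24 ± 0.25 (SE), adjusted p = 0.00057). The rest fell by 0.49 (Ndufv1) to 1.19 (Ndufc2) on the log2 scale.

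The 6 calls for Ndufa4, Ndufa5, Ndufa9, Ndufc2, Ndufs8 and Sdhc were kept without any 1 library of either group and under every other setting run. The count fell to 6 lower without LN CD103+ replicate 2 and to 8 without LN CD103+ replicate 3, and 1 member was higher without CD8+ replicate 3. T cell transcripts moved with this comparison, with 6 of 6 higher in LN CD103+ DCs and none of them at 0 in either group, and all 16 cell cycle transcripts were lower (summed level 260–409 CPM against 1231–1687 CPM). Among the other marker lists, 3 of 4 tested NK cell transcripts (summed level 9.94–13.4 against 0.801–2.02 CPM) and 3 of 6 B cell transcripts were higher. Lower were 3 of 4 tested erythroid, 4 of 7 macrophage, 3 of 7 tested neutrophil and 3 of 4 plasmacytoid DC transcripts. Their part in the result, and that of the larger share of reads outside exons in the LN libraries, was not tested.

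In the same comparison of organs in the DC2 lineage, few members of the respiratory chain were called. Between LN CD11b+ and splenic CD4+ DCs, 2 members were higher and 2 lower, against 19.3% and 13.8% of all genes, and the median log2 fold change was -0.01 over the members and 0.05 over all genes. Uqcrb was at 36.9, 22.9 and 26.7 CPM in LN CD11b+ DCs, above all CD4+ libraries (log2 fold change 0.81 ± 0.29 (SE), adjusted p = 0.0405), and Cox4i1, a nuclear subunit of complex IV, was higher by 0.47 on the log2 scale (adjusted p = 0.0316). Ndufs1, the largest iron-sulfur subunit of complex I, was at 43.7, 36.3 and 64.2 CPM against 63.2, 67.1 and 95.6 CPM in CD4+ DCs, so that 1 LN library lay within the CD4+ range (log2 fold change -0.65 ± 0.23 (SE), adjusted p = 0.0389). Ndufs7, also an iron-sulfur subunit, was at 89.0, 93.9 and 64.2 CPM against 131, 143 and 111 CPM with no overlap (log2 fold change -0.64 ± 0.21 (SE), adjusted p = 0.0249).

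None of these 4 calls was kept in every setting. That for Uqcrb was lost without CD8+ replicate 2, CD4+ replicate 2, LN CD11b+ replicate 1 or 3, or any monocyte library (adjusted p = 0.0504 to 0.195), that for Cox4i1 without CD4+ replicate 2 or LN CD11b+ replicate 1 or 2 (0.0587 to 0.0935), that for Ndufs1 without CD4+ replicate 3, LN CD11b+ replicate 1 or 2 or monocyte replicate 1 (0.0505 to 0.174), and that for Ndufs7 without CD4+ replicate 1 or 2 or LN CD11b+ replicate 3 (0.0527 to 0.107). With the replicate block, 5 members were higher (Uqcrb, Cox4i1, Ndufb7, Cox5a and Cox8a) and 2 lower, beside 21.2% and 15.8% of all genes. T cell (6 of 6 higher) and cell cycle transcripts (16 of 16 lower; 440–469 against 1648–2015 CPM) moved in this comparison as well. So did NK cell (3 of 4 tested higher; 4.69–21.2 against 0.665–3.22 CPM), macrophage (3 higher and 1 lower of 7), erythroid (2 of 4 tested lower), B cell (1 of 6 higher) and plasmacytoid DC transcripts (1 of 4 higher). Their part in the result was not tested.

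Whether the organ difference itself differed between lineages was tested with an interaction term. It was negative for 3 members, meaning a stronger fall or a weaker rise from spleen to LN in DC1 than in DC2, against 6.03% of all genes in that direction, and positive for none of the members, against 5.17%. The share of negative members was close to that of all genes. No member was positive at an unadjusted p under 0.05, nor with DESeq2 or limma, and 13 were negative at that level. The share of all genes at that level was not counted, so the 13 cannot be set against it. The 3 were Uqcrb (-1.70 ± 0.41 (SE) on the log2 scale, adjusted p = 0.00993), Ndufa5 (-1.68 ± 0.51, adjusted p = 0.0399) and Ndufs8 (-1.18 ± 0.36, adjusted p = 0.0383). Ndufa5 was at 9.14, 3.58 and 13.0 CPM in CD4+ DCs and at 11.4, 9.23 and 12.8 CPM in LN CD11b+ DCs, which overlap. Ndufs8 was at 96.8, 82.2 and 46.8 CPM in LN CD11b+ DCs and also overlapped its CD4+ values. The median interaction was -0.54 over the members and -0.07 over all genes. This term is built from the libraries of the comparisons above and is not independent of them. Without any 1 DC library the call for Uqcrb was kept. That for Ndufa5 was lost without CD8+ replicate 1 or 3, CD4+ replicate 1 or 2, LN CD103+ replicate 2 or 3, LN CD11b+ replicate 1 or 3 or monocyte replicate 3 (adjusted p = 0.0541 to 0.103). That for Ndufs8 was lost without CD8+ replicate 1 or 2, CD4+ replicate 3, LN CD103+ replicate 2 or 3, LN CD11b+ replicate 1 or 2 or any monocyte library (0.051 to 0.121). The count was 6 without CD4+ replicate 3, and 1 without CD8+ replicate 1, LN CD103+ replicate 2 or 3, LN CD11b+ replicate 1 or monocyte replicate 3.

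**Figure D3:**
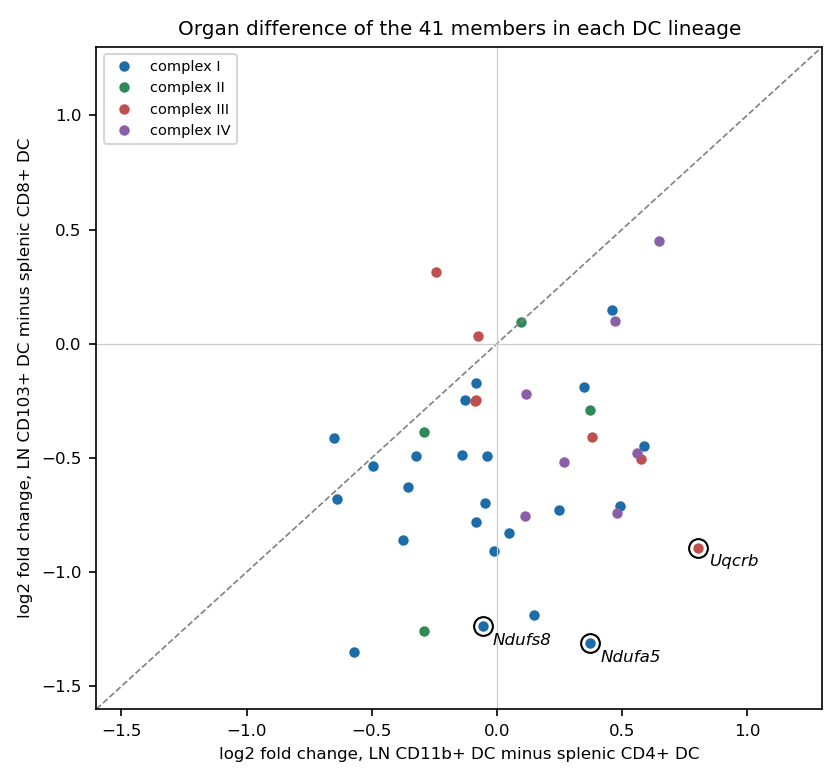
Log2 fold change from spleen to LN of each member in DC2 (LN CD11b+ minus splenic CD4+, x axis) and in DC1 (LN CD103+ minus splenic CD8+, y axis), coloured by complex. Most points lie below the dashed line of equal difference, and circles mark Uqcrb, Ndufa5 and Ndufs8, the 3 members past the threshold for the interaction.

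Within the LN, few members were called between the DC1 and DC2 subtypes. Between LN CD103+ and LN CD11b+ DCs, 1 member was lower and none higher in edgeR, against 7.73% and 5.22% of all genes, and the median log2 fold change was -0.07 over the members and -0.01 over all genes. At an unadjusted p under 0.05 there was 1 higher and 3 lower, DESeq2 called 1 higher and 2 lower, and limma called 0 higher and 3 lower. The shares of all genes were not counted for these settings. Ndufa10 was at 123, 105 and 100.3 CPM in LN CD103+ DCs, and LN CD11b+ DCs had 154, 201 and 175 CPM (log2 fold change -0.69 ± 0.22 (SE), adjusted p = 0.0478). The libraries did not overlap, but the call was lost without any 1 of the 6 LN libraries, CD8+ replicate 1 or any monocyte library (adjusted p = 0.0538 to 0.157). All 3 LN CD103+ libraries were above all 3 LN CD11b+ libraries for 2 members and below them for 5, against 16% and 15.8% of all genes. With the replicate block, Ndufv2 was higher and Ndufa9, Ndufa10 and Uqcrfs1 were lower, beside 6.97% and 9.21% of all genes. Macrophage transcripts were lower in LN CD103+ DCs (7 of 7, 176–225 against 628–928 CPM), and their part was not tested.

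Ly6C+ monocytes, set against the mean of the 4 DC subtypes, had 12 members higher and 4 lower, against 26.4% and 26.5% of all genes. The median log2 fold change was 0.28 over the members and -0.06 over all genes. The 12 were Ndufa6, Ndufa8, Ndufb3, Ndufb5, Ndufb7, Ndufs3 and Ndufs7 of complex I, Uqcrq and Cyc1 of complex III, and Cox4i1, Cox6a1 and Cox8a of complex IV. The 4 lower were Sdha, Uqcrc2, Uqcrfs1 and Uqcrh. In pairwise edgeR tests of the same fit, none of the 12 passed the threshold against the DC subtype with the highest mean. Adjusted p ran from 0.162 (Ndufb3) to 0.945 (Ndufs7). That subtype was splenic CD8+ DCs, except CD4+ DCs for Ndufs7 and LN CD103+ DCs for Cox4i1. Nor did the 4 lower pass against the DC subtype with the lowest mean (adjusted p = 0.171 to 0.872). With upper quartile factors, which moved the median of all genes by -0.12 on the log2 scale, the split was 7 higher and 7 lower.

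Cox6a1 was at 133, 165 and 139 CPM in monocytes, within the range of CD8+ DCs and above all libraries of the other DC subtypes (log2 fold change 1.08 ± 0.22 (SE), adjusted p = 0.000386). Ndufs3, a core subunit of the matrix arm of complex I, was at 16.3, 18.9 and 19.6 CPM in monocytes. Its DC libraries ranged from 3.92 to 14.8 CPM, so no DC library reached the monocytes (log2 fold change 1.00 ± 0.26 (SE), adjusted p = 0.00293). Of its 50-base stretches 39.7% also occur in other annotated genes. Cox8a was at 109, 116 and 111 CPM in monocytes (log2 fold change 0.98 ± 0.20 (SE), adjusted p = 0.00045). The LN libraries were lower, with 65.4, 53.3 and 63.4 CPM for CD103+ DCs and 62.9, 47.2 and 52.8 CPM for CD11b+ DCs, and CD8+ replicate 3 was the only DC library within the monocyte range.

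The 6 calls for Ndufa6, Ndufb3, Ndufb7, Ndufs3, Cox6a1 and Cox8a were kept without any 1 library and under every other setting run. Leaving out monocyte replicate 1, 2 or 3 gave 7, 7 and 6 members higher and 0, 1 and 0 lower, and 2 were lower without LN CD103+ replicate 2 or LN CD11b+ replicate 2. Sdha was at 180, 205 and 191 CPM in monocytes (log2 fold change -0.43, adjusted p = 0.0477). In spleen the CD8+ DCs had 249, 274 and 298 CPM of Sdha and the CD4+ DCs 271, 227 and 185 CPM. In LN the CD103+ DCs had 330, 306 and 241 CPM and the CD11b+ DCs 257, 305 and 167 CPM. The monocytes were low but within the DC range, and the call was lost without any monocyte library (adjusted p = 0.0886 to 0.165) and without CD8+ replicate 3, CD4+ replicate 1, LN CD103+ replicate 1 or 2 or LN CD11b+ replicate 1 or 2 (0.0607 to 0.0678). Neutrophil transcripts, 9 in all, summed to 220–344 CPM in monocytes and to at most 2.16 CPM in any DC library, with 7 of 7 tested higher. This list includes S100a8 and S100a9, which the paper names as monocyte genes, so the sum is not specific to neutrophils. All 6 T cell transcripts, 15 of 16 cell cycle transcripts and all 4 tested erythroid transcripts were lower in monocytes. Of 7 macrophage transcripts, 5 were lower and 1 higher. Their sum in monocytes (441–501 CPM) was above that in CD8+ (180–284 CPM) and LN CD103+ DCs (176–225 CPM). It was below that in CD4+ (1049–1337 CPM) and LN CD11b+ DCs (628–928 CPM). Lower were also 2 of 6 B cell and 1 of 4 tested NK cell transcripts. Of 4 plasmacytoid DC transcripts 2 were lower and 1 higher. The part of these lists in the result was not tested. Each monocyte library was sequenced in 2 runs and each DC library in 1, which cannot be told apart from the cell type.

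Members with no call also had libraries that stood apart. Ndufb10 was at 133, 127 and 107 CPM in CD8+ DCs, 146, 128 and 62.0 in CD4+ DCs, 129.5, 107 and 72.2 in LN CD103+ DCs, 121, 140.5 and 45.3 in LN CD11b+ DCs, and 80.9, 96.8 and 87.5 in monocytes. Replicate 3 of the CD4+ and of the LN CD11b+ DCs was far below the others of its group. Uqcrc1 was at 331, 447 and 426 CPM in CD8+ DCs, 355, 521 and 364 in CD4+ DCs, 384, 322 and 310.2 in LN CD103+ DCs, 383, 464 and 322 in LN CD11b+ DCs, and 435, 449 and 458 in monocytes. These ranges overlap apart from that of the monocytes with LN CD103+ DCs. Cox6c in the other subtypes was at 84.2, 84.2 and 97.8 CPM in LN CD103+ DCs, 92.4, 76.0 and 79.3 in LN CD11b+ DCs, and 95.9, 109 and 124 in monocytes, which reached above the LN libraries. Sdhc in the subtypes not yet given was at 72.5, 61.5 and 42.1 CPM in CD4+ DCs, 61.6, 59.0 and 22.5 in LN CD11b+ DCs, and 55.4, 63.6 and 54.0 in monocytes. These overlap. In the 5 comparisons of subtypes, 8 members had no call (Ndufa1, Ndufa2, Ndufb8, Ndufb9, Ndufb10, Sdhb, Uqcrc1 and Cox5a), 16 had 1, 12 had 2 and 5 had 3 (Ndufa6, Ndufs7, Uqcrb, Cox4i1 and Cox6a1). Those with 1 call were Ndufa4, Ndufa9, Ndufb3, Ndufc2, Ndufs1, Ndufs3, Ndufv1, Ndufv2, Sdha, Sdhc, Sdhd, Uqcrc2, Uqcrfs1, Cyc1, Cox5b and Cox6c. Those with 2 were Ndufa5, Ndufa8, Ndufa10, Ndufb2, Ndufb5, Ndufb7, Ndufc1, Ndufs8, Uqcrh, Uqcrq, Cox7b and Cox8a.

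Summed over members, the complexes did not follow a common order of subtypes. The sum of all 41 was 10389 ± 64.2 TPM (SD, n = 3 here and below) in CD8+ DCs, 9240 ± 62.8 in monocytes, 8936 ± 250 in CD4+ DCs, 8266 ± 508 in LN CD11b+ DCs and 7236 ± 808 in LN CD103+ DCs. The CD8+ libraries were above all others, and the LN CD103+ libraries overlapped the LN CD11b+ ones. A sum weights abundant members, and the mean of the log2 CPM of the 41, each centred on its own mean, was instead lowest in CD4+ DCs (-0.21) and again highest in CD8+ DCs (0.35). Complex I summed to 5181 ± 398 TPM in CD8+ DCs and 2963 ± 664 TPM in LN CD103+ DCs, with CD4+ DCs (4177 ± 724), monocytes (3943 ± 99.6) and LN CD11b+ DCs (3445 ± 790) between. Complex II spanned a narrow range, from 556 ± 86.6 TPM in LN CD103+ DCs to 712 ± 24.9 TPM in CD8+ DCs.

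By summed TPM complex III ran in another order, with 2959 ± 539 TPM in CD4+ DCs, 2705 ± 509 TPM in LN CD11b+ DCs, 2298 ± 130 TPM in CD8+ DCs, 2263 ± 51.7 TPM in monocytes and 1956 ± 104 TPM in LN CD103+ DCs. The CD4+ libraries (2342 to 3338 TPM) overlapped the CD8+ libraries (2149 to 2393 TPM). The order turned when each member had the same weight, as the mean centred log2 CPM of complex III was highest in CD8+ (0.17) and lowest in CD4+ DCs (-0.17). Uqcrfs1 and Uqcrh, abundant members of complex III, had their highest mean CPM in the DC2 subtypes. Complex IV summed to 2401 ± 111 TPM in monocytes, 2198 ± 396 TPM in CD8+ DCs, 1762 ± 218 TPM in LN CD103+ DCs, 1511 ± 283 TPM in LN CD11b+ DCs and 1194 ± 303 TPM in CD4+ DCs. The CD8+ libraries (1803 to 2594 TPM) were above the CD4+ libraries (848 to 1407 TPM). This order rests on which subunits are counted, since with the other nuclear subunits of complex IV added the log2 ratio of CD8+ to CD4+ DCs went from 0.88 to 0.03. Cox6b1, a subunit that is not among the members, was at 216, 195 and 220 CPM in CD8+ DCs and at 276, 515 and 478 CPM in CD4+ DCs (log2 fold change -1.01, adjusted p = 0.0055), opposite to the called members of complex IV. The sums also depended on the place of Ndufa4. With Ndufa4 counted in complex IV, that complex summed to 3510.4 TPM in CD8+ DCs, 2978 in monocytes, 2271 in CD4+, 2246 in LN CD103+ and 2211 in LN CD11b+ DCs, so that CD8+ DCs were highest and CD4+ DCs no longer lowest. Without it complex I summed to 3869 TPM in CD8+ DCs, 3366 in monocytes, 3101 in CD4+, 2745 in LN CD11b+ and 2479 in LN CD103+ DCs, with monocytes above CD4+ DCs.

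**Figure D4:**
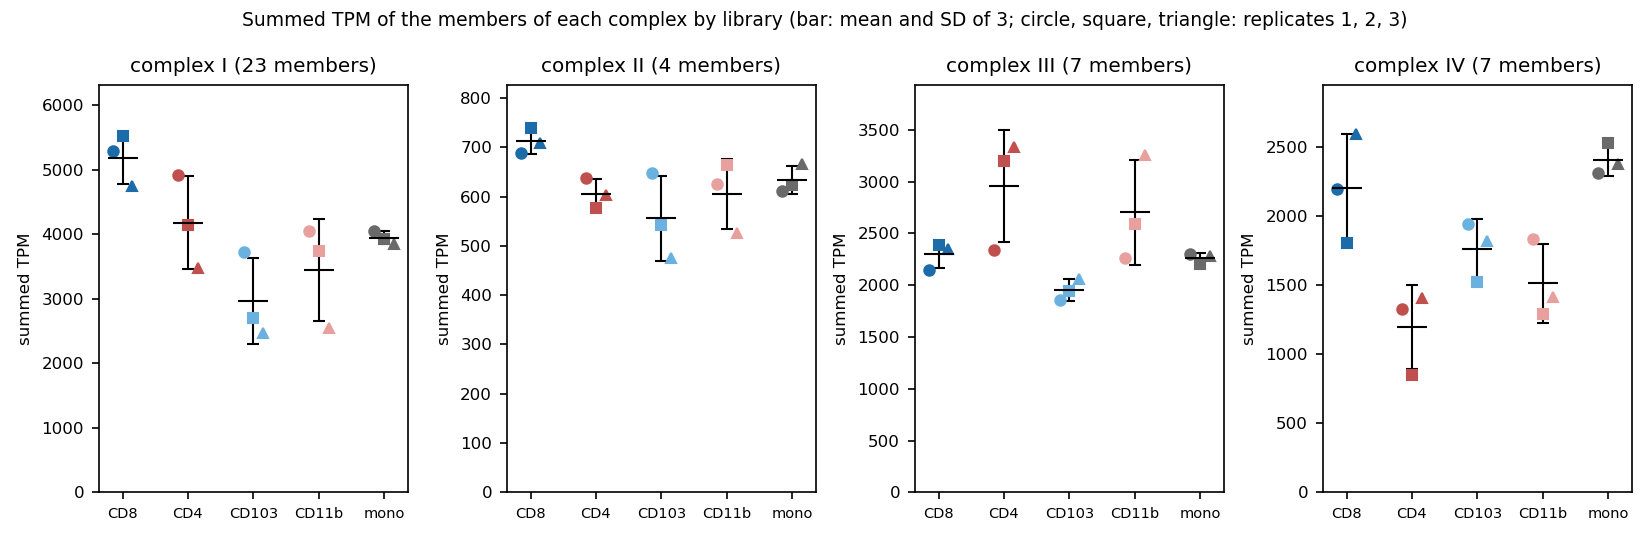
Summed TPM of the members of each complex in each library, with bars at the mean and SD of the 3 libraries of a subtype and a symbol shape for each replicate number. By this sum complex I is highest in CD8+ DCs (5181 TPM) and complex III in CD4+ DCs (2959 TPM), although with equal weight to each member complex III is highest in CD8+ DCs, and monocytes show the smallest spread in complexes I, III and IV.

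Libraries with the same replicate number deviated together across the members in all 4 DC subtypes. Over the 41 members, the correlation of deviations from the subtype means was 0.238 to 0.907 (median 0.666) for the 18 pairs of DC libraries from different subtypes with the same number. It was -0.894 to 0.499 (median -0.357) for the 36 pairs with different numbers and -0.223 to 0.207 for DC and monocyte libraries of the same number. These are correlations across genes, which are not independent replicates, and over all genes tested the same-number DC pairs ran from 0.0163 to 0.375 (median 0.170). A single component held 54.8% of the variation of the members within subtypes, against 22.4% for all genes. ATP synthase (median 0.683) and cytosolic ribosome genes (median 0.684) gave like values, so the pattern is not particular to the members. The labels give no batch for the numbers.

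Between DC replicates 3 and 2, which have no order, 12 members were lower in replicate 3 in all 4 DC subtypes (Ndufa1, Ndufa2, Ndufa4, Ndufa10, Ndufb8, Ndufb9, Ndufb10, Ndufs8, Sdhc, Sdhd, Uqcrc1 and Uqcrfs1). In the opposite direction, 16 were higher in all 4 (Ndufa5, Ndufa6, Ndufa8, Ndufb3, Ndufb5, Ndufb7, Ndufc1, Ndufc2, Ndufs3, Uqcrb, Uqcrq, Cyc1, Cox4i1, Cox6a1, Cox6c and Cox8a). The share of all genes that moved alike in all 4 was not counted, so these counts cannot be set against it. The median coefficient of variation of a member was 34.1% in CD4+ DCs, 24.6% in LN CD11b+ DCs, 20.1% in CD8+ DCs, 15.7% in LN CD103+ DCs and 7.27% in monocytes. Over all genes tested the medians were 31%, 24.5%, 23.3%, 19.7% and 14.8% in the same order of subtypes, so the members were near or below them. More than a 2-fold range among the 3 libraries was found for 21 members in CD4+ DCs, 8 in LN CD11b+ DCs, 3 in LN CD103+ DCs, 2 in CD8+ DCs and 0 in monocytes. The share of all genes with such a range was not counted.

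**Figure D5:**
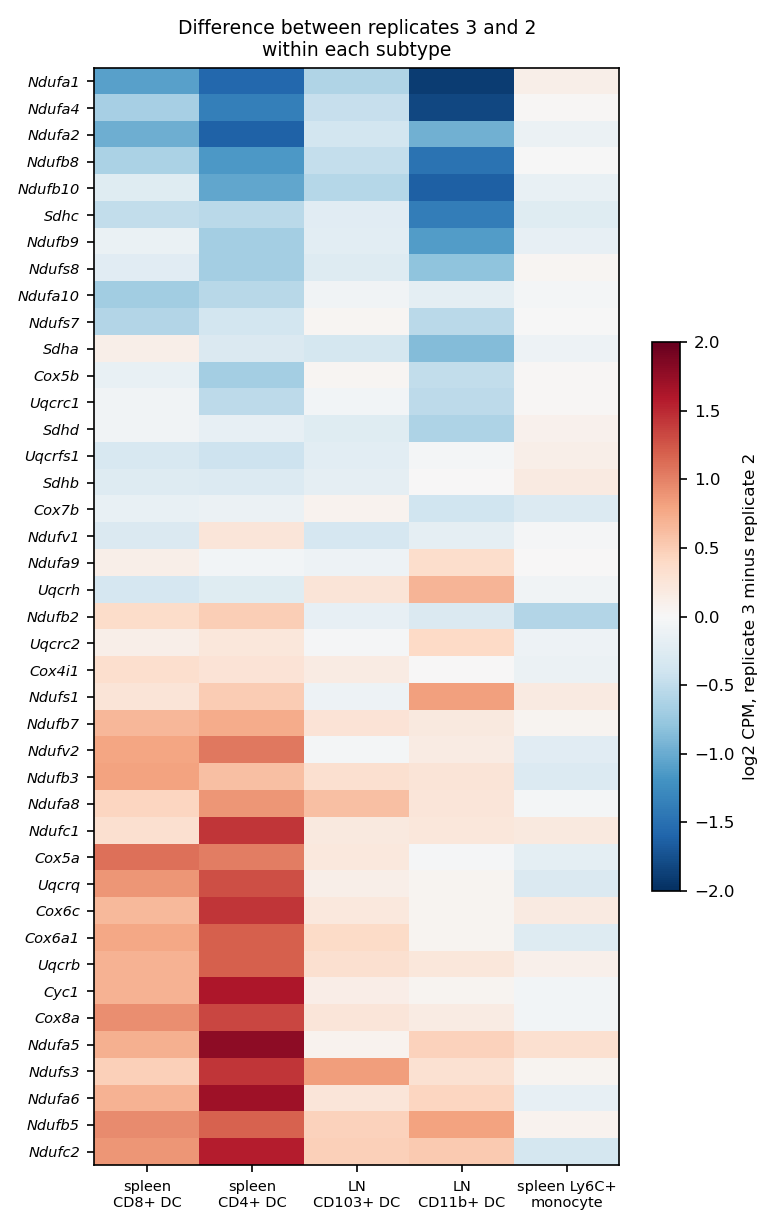
Difference in log2 CPM between replicates 3 and 2 of each subtype for the 41 members, from lower (blue) to higher (red) in replicate 3, ordered by the mean over the DC subtypes. The 4 DC columns share their colours, with 12 members lower and 16 higher in all 4 (share of all genes not counted), and the monocyte column is pale.

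Other genes of oxidative metabolism were counted beside the members. Of all genes, 13.1% were higher and 14.4% lower in CD8+ than in CD4+ DCs. The shares were 23.8% and 21.8% in LN CD103+ against CD8+ DCs, and 26.4% and 26.5% in monocytes against DCs. Of the 14 other complex I subunits, 5 were higher and 1 lower in CD8+ than in CD4+ DCs (median log2 fold change 0.54), led by Ndufa12 (1.39) and Ndufa3 (1.17), and 5 were lower in LN CD103+ than in CD8+ DCs, led by Ndufb11 (-1.33). Among 15 tested ATP synthase genes, 9 were higher in CD8+ than in CD4+ DCs (median 0.84), with Atp5g1, a subunit of the membrane rotor, at 1.79 and Atpif1, an inhibitor of the enzyme, at 1.41. In LN CD103+ against CD8+ DCs 8 of the 15 were lower, among them Atp5g3 (-1.41). Of 9 tested transcripts of the mitochondrial genome, 4 were higher and 1 lower in CD8+ than in CD4+ DCs. In monocytes against DCs 1 was higher and 5 were lower, led by mt-Co3 (-1.72). The other 4 of 13 did not pass the filter.

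Of 37 tested assembly factors, 6 were higher and 1 lower in CD8+ than in CD4+ DCs (median 0.22), beside 13.1% and 14.4% of all genes, and 2 were higher and 12 lower in LN CD103+ than in CD8+ DCs (median -0.41), beside 23.8% and 21.8%. Sdhaf1, an assembly factor of complex II, was higher in LN DCs of both lineages (log2 fold change 2.86 in CD103+ and 2.15 in CD11b+ DCs). Of 17 regulators of mitochondrial biogenesis, 0 were higher and 3 lower in CD8+ than in CD4+ DCs, beside 13.1% and 14.4% of all genes. The share of lower regulators was near that of all genes. The 3 were Tfb2m (-1.08), Nrf1 (-0.81) and Yy1 (-0.61). Nrf1 and Yy1 encode factors whose motifs were searched above. Of 9 isoforms known from tissues such as muscle or testis, 2 passed the filter, and Cox6b2 was lower in CD8+ than in CD4+ DCs (-1.48) and higher in monocytes (1.32), at means of 1.37 to 6.19 CPM.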

How the data were processed

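RNA was measured in 15 libraries, 3 for each of 5 sorted subtypes. Per the labels and the study's methods, the authors amplified poly-A cDNA, sequenced it on an Ion Torrent instrument, aligned reads to mm10 with STAR 2.4.0j and counted unique reads per Ensembl gene with featureCounts (Subread 1.5.2), without strand and with reads allowed to count for overlapping genes. The deposited counts sum the runs of a library. The deposited TPM were calculated by the authors by dividing those counts by exon length. Because counting ignored strand, reads of overlapping genes cannot be told apart.

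Tests covered 14456 of 38924 genes, those above 1 CPM in 3 or more libraries, with the quasi-likelihood test of edgeR 4.0.16 in R 4.3.3, with TMM factors (0.883 to 1.10), all 15 libraries in 1 model and Benjamini-Hochberg adjustment over all genes tested, at a threshold of 0.05. Standard errors are the log2 fold change divided by the square root of its F statistic. The test was checked on simulated counts in which 100 genes changed 2-fold and 100 changed 1.5-fold in splenic CD8+ DCs. Against CD4+ DCs it called 22 and 2 of them, with 1 false call. A member that was not called can therefore still differ. Fewer genes changed there than were called in these data (3966), so the rates need not carry over. Alternatives were other scaling factors, no filter, DESeq2 1.42.0, limma 3.58.1 on log2(TPM + 1), a minimum change of 0.5 (log2), fewer libraries in the fit, each library left out and a replicate block. The block within DC libraries alone or the compared groups alone and, for the scores per complex, Ndufa4 in complex IV and a mean of log2 CPM, were added after seeing the data. Same-numbered libraries deviated together over all genes (correlation 0.16 to 0.38 for splenic CD8+ and CD4+, 0.18 to 0.26 for LN CD103+ and CD11b+, 0.20 to 0.27 for LN CD11b+ and splenic CD4+ DCs). The main fit has no term for replicate number and ignores this pairing. Counts with the replicate block are given only as an alternative. For LN CD103+ and splenic CD8+ DCs the correlation was 0.037 to 0.086.

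The members and lists were chosen with earlier results of these data known. Values per library are given for the 3 members with the largest change among those past the threshold in each comparison and for the largest and smallest F statistic in each complex, and other values, such as those of Uqcrh, were chosen after they were seen.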

Additional observations from a re-analysis of the deposited data

Results flagged for a closer look

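In 3 members the difference from spleen to LN was not the same in the DC1 lineage (LN CD103+ against splenic CD8+ DCs) and the DC2 lineage (LN CD11b+ against splenic CD4+ DCs) by the interaction term of edgeR. Uqcrb, a small subunit of complex III, had -0.89 in DC1 and 0.81 in DC2 on the log2 scale, a difference of -1.70 (adjusted p = 0.00993). Ndufa5, an accessory subunit of complex I, had -1.31 and 0.37, a difference of -1.68 (adjusted p = 0.0399). Ndufs8, an iron-sulfur subunit of complex I, had -1.24 and -0.06, a difference of -1.18 (adjusted p = 0.0383). All 3 differences were negative. Of all genes, 6.03% were called in that direction, and the share of members was close to it. The calls for Ndufa5 and Ndufs8 were lost when certain single libraries were left out, and that for Uqcrb was kept without any 1 DC library. Of the 50-base stretches of Uqcrb transcripts, 43.4% also occur in other annotated genes. The cause was not tested.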

How the results depend on the processing

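Of the called members, none changed sign in any setting. Kept in all settings, counting libraries left out of the groups compared, were 7 of 18 calls for splenic CD8+ against CD4+ DCs, 6 of 16 for LN CD103+ against splenic CD8+ DCs, 6 of 16 for monocytes, 1 of 3 for the interaction, 0 of 4 for LN CD11b+ against splenic CD4+ DCs and 0 of 1 for LN CD103+ against LN CD11b+ DCs. The cause of the changes below was not tested, beyond what each setting itself removes.

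For splenic CD8+ against CD4+ DCs, 9 members were higher and 1 lower when only these 2 groups were fitted. For LN CD103+ against LN CD11b+ DCs (0 higher, 1 lower), 1 was higher without a filter, with DESeq2 and with only the 2 groups, and 0 (RLE factors), 2 (DESeq2), 3 (limma on TPM) and 2 (only the 2 groups) were lower. For LN CD11b+ against splenic CD4+ DCs (2 higher, 2 lower), 1 was higher at a minimum change of 0.5, 0 with limma and 0 with only the 2 groups, where 0 were lower. For monocytes (12 higher, 4 lower), upper quartile factors gave 7 and 7, and 1 (minimum change), 7 (DESeq2) and 0 (limma) were lower. For the interaction (3 lower), 8 were lower without a filter and 5 with DESeq2. Upper quartile factors moved the median of all genes by -0.12 on the log2 scale in the monocyte comparison, and no other scaling moved a median by more than 0.1.

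The replicate block was an alternative to the main fit, which ignores replicate number. Same-numbered DC libraries deviated together most in 3 of the comparisons. With the block, LN CD103+ against LN CD11b+ DCs had 1 higher and 3 lower, LN CD11b+ against splenic CD4+ DCs 5 higher, monocytes 7 lower and the interaction 9 lower. With the block and DC libraries only, these were 1 and 3, 5 higher and, for the interaction, 10 lower. With the block and only the compared groups, 2 were higher and 5 lower in LN CD103+ against LN CD11b+ DCs, and 4 lower in LN CD11b+ against splenic CD4+ DCs. The block moved no other count by more than 1.5 times. With the block over all libraries, 6.97% of all genes were higher and 9.21% lower in LN CD103+ against LN CD11b+ DCs. In LN CD11b+ against splenic CD4+ DCs 21.2% were higher and 15.8% lower. For monocytes, the interaction and the fits of fewer libraries, the share of all genes with the block was not counted. Those counts of members cannot be set against it.

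In summed scores (log2 ratios), splenic CD8+ over CD4+ DCs went from 0.23 to 0.0557 for complex II without its most abundant member and from 0.88 to 0.0276 for complex IV with the other subunits. Over all 41 members it went from 0.22 to 0.16 with summed CPM, and LN CD103+ over splenic CD8+ DCs from -0.52 to -0.35. With Ndufa4 counted in complex IV, the ratio of LN CD103+ over splenic CD8+ DCs for complex IV went from -0.32 to -0.64. With the mean of log2 CPM per member, that of splenic CD8+ over CD4+ DCs turned from -0.36 to 0.34 for complex III and went from 0.22 to 0.56 over all 41. Both were chosen after seeing the data.

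With each library left out in turn, 25 to 31 members differed over the subtypes. For splenic CD8+ against CD4+ DCs 10 to 17 were higher and 1 to 3 lower, for LN CD103+ against LN CD11b+ DCs 0 to 1 and 0 to 2, for LN CD103+ against splenic CD8+ DCs 0 to 1 and 6 to 19, for LN CD11b+ against splenic CD4+ DCs 0 to 4 and 1 to 3, for monocytes 6 to 13 and 0 to 6, and for the interaction 0 and 1 to 6.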

Other observations

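Genes of the TCA cycle, which supplies the electrons for the respiratory chain, were counted in the same way. Of all genes, 23.8% were higher and 21.8% lower in LN CD103+ against splenic CD8+ DCs. The shares were 19.3% and 13.8% in LN CD11b+ against splenic CD4+ DCs, and 13.1% and 14.4% in splenic CD8+ against CD4+ DCs. In LN CD103+ against splenic CD8+ DCs, 10 of 18 were lower in edgeR (median log2 fold change -0.65), led by Idh2 (-2.67), Fh1 (-2.42) and Idh3a (-2.34), the isocitrate dehydrogenases and fumarase of the cycle. In LN CD11b+ against splenic CD4+ DCs, 6 were lower and 1 higher (median -0.32), led by Mdh2 (-2.25), malate dehydrogenase. Between splenic CD8+ and CD4+ DCs 2 were higher and 2 lower (median 0.08), with Pdha1, a subunit of pyruvate dehydrogenase, at -1.27.

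Ribosomal protein genes moved in the same comparisons, for which the shares of all genes are given above. In LN CD103+ against splenic CD8+ DCs, 37 of 52 cytosolic ribosome genes were lower (median -1.004), as were 15 of 34 mitochondrial ribosome genes, with 2 higher (median -0.59), and 6 of 15 genes of mitochondrial import, with 1 higher (median -0.63). In splenic CD8+ against CD4+ DCs, 17 cytosolic ribosome genes were higher and 7 lower (median 0.49), 11 mitochondrial ribosome genes were higher and 3 lower (median 0.57), and 6 import genes were higher and 1 lower (median 0.38). Of 7 other genes of complexes III and IV and cytochrome c, 1 was higher (Cox7a2, 1.05) and 1 lower (Cox6b1, -1.01) in that comparison.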
